A study of Mus musculus with 4 samples.

Results

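The genes described here encode the proteins of the mitochondrial ribosome. They were taken as the protein-coding genes of the GRCm38 annotation whose symbol begins with Mrpl or Mrps followed by a digit, which gave 78 genes among the 55421 gene identifiers counted. By symbol, 49 of them (Mrpl) belong to the large subunit and 29 (Mrps) to the small subunit. RNA had been sequenced from wild-type mice of the inbred strain C57BL/6, from material that the labels call macrophages of the islet. Normal chow (NCD) was the feed behind 2 libraries and a high-fat diet (HFD) that behind the other 2, and genotype and strain were the same in all 4. The sources used here give neither the age of the mice, the length of feeding nor a way of separating macrophages from other islet cells. Whether each library stands for its own animal is not stated, so the p-values rest on a spread between libraries that may be technical.

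The mitochondrial ribosome is built in the mitochondrial matrix from RNAs encoded by mitochondrial DNA and from proteins encoded in the nucleus, made in the cytosol and imported. Its small subunit reads the mitochondrial mRNAs and its large subunit joins the amino acids. All of its products in mammals are subunits of the respiratory chain and of ATP synthase, the machinery through which beta cells couple glucose to insulin release. Some of its proteins descend from bacterial ribosomal proteins, and others exist only in mitochondrial ribosomes.

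Library totals were 64490097 and 62171973 counts for NCD, and 61855337 and 56740720 counts for HFD. The labelled cell type was set against its markers, and islet hormone transcripts stood far above those of macrophages. Transcripts of islet hormones were abundant in every library, with Ins2 (insulin) at 9771 and 9891 CPM (counts relative to library size) in NCD and at 8307 and 8730 in HFD, and Gcg (glucagon) at 9032 and 9472 in NCD and at 12803 and 13461 in HFD. Adgre1, which encodes the macrophage antigen F4/80, stood at 29.5 and 31.9 CPM in NCD and at 26.4 and 24.3 CPM in HFD. Of the other 7 macrophage markers listed, Lyz2 (lysozyme) was the highest, at 381 and 372 CPM in NCD and at 280 and 275 CPM in HFD, and Fcgr1, an Fc receptor, the lowest, at 7.78 and 6.82 CPM in NCD and at 8.67 and 8.28 CPM in HFD. CPM of a gene was scaled between libraries with the trimmed mean of M-values, and sums over genes were left unscaled. In NCD, 6 beta cell markers summed to 17232 and 17713 CPM, against 858 and 827 CPM for the 8 macrophage markers. In HFD these sums were 13473 and 14073 CPM, against 702 and 699 CPM. The changes below can therefore not be assigned to macrophages. In such bulk RNA, fewer cells of a type and less RNA per cell cannot be told apart.

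Transcripts of the mitochondrial ribosome stood lower in the HFD libraries, by a small amount that both subunits shared. The 78 genes summed to 2632 and 2734 CPM in NCD and to 2298 and 2332 CPM in HFD, so that both HFD sums lay below both NCD sums. Of the 78 genes, 20 fell, 2 rose and 56 did not pass the test, which was edgeR's quasi-likelihood test across 21563 genes at a Benjamini-Hochberg adjusted p under 0.05. Their median log2 change, HFD over NCD, was -0.21, against 0.00 over all genes tested. The largest fall was in Mrps26, whose level fell by 36.7%, and the largest rise was in Mrpl18, by 44.0%.

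The genes called lower made up 25.6% of the mitoribosomal genes, where 14.5% of all genes tested were called lower. Those called higher made up 2.56%, where 17.9% of all genes were called higher, and 32.4% of all genes were called in either direction. Expression level bears on such shares: among the 5366 protein-coding genes with NCD levels like those of the mitoribosomal genes, 22.2% were called lower and 17.9% higher, with a median log2 change of -0.08. The share called lower was thus near that of genes of like level, while 66 of the 78 mitoribosomal genes (84.6%) had a log2 change below 0, against 58.8% of the genes of like level. Both HFD libraries lay below both NCD libraries in 51 of the 78 genes and above them in 5, and the diets overlapped in 22. Over all genes tested, 33.2% lay below without overlap, 34.5% above, and 67.7% in either direction. Among the 5366 genes of like level, 44.7% lay below without overlap, against 65.4% of the mitoribosomal genes, and 1597 genes lay above.

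The number of falls depended on single libraries, and leaving out any library also lowered the share called over all genes. It was 10 without NCD replicate 1, 13 without NCD replicate 2, 5 without HFD replicate 1 and 10 without HFD replicate 2. The share of mitoribosomal genes called lower was below that of all genes without HFD replicate 1, and above it without each of the other libraries. The falls of 4 genes, Mrpl17, Mrps16, Mrps25 and Mrps26, were called whichever library was left out. Without the filter on low counts 15 genes fell and 1 rose, and the calls lost were those of Mrpl32, Mrpl33, Mrpl42, Mrpl44, Mrpl54 and Mrps7 (edgeR adjusted p = 0.0525 to 0.0765). With only genes of at least 5 CPM on average tested, 23.4% of 77 mitoribosomal genes and 20.7% of all genes were called lower. These shares lay closer together than the 25.6% and 14.5% given above. In direction, 57 genes lay below 0 and 9 above 0 under every setting tried.

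**Figure D1:**
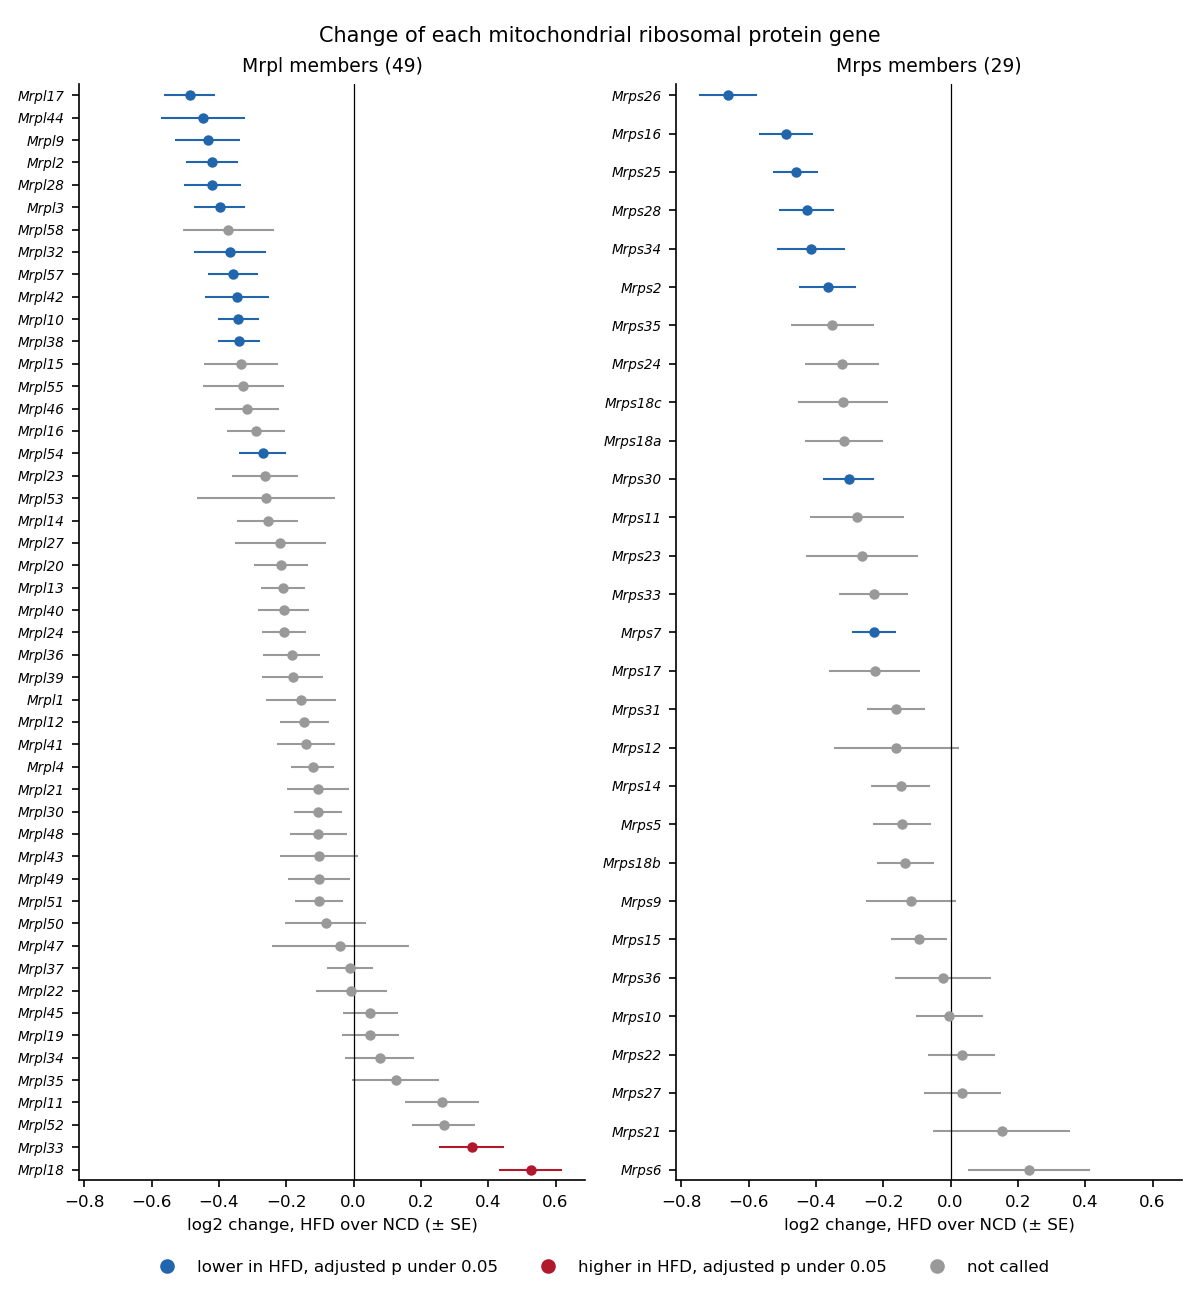
Log2 change, HFD over NCD, of each of the 78 mitochondrial ribosomal protein genes with its standard error, the large subunit on the left and the small subunit on the right, each sorted by change. Points to the left of the vertical line at 0 are lower in HFD, as 66 of 78 are, and colour marks the 20 genes called lower and the 2 called higher by edgeR.

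**Figure D2:**
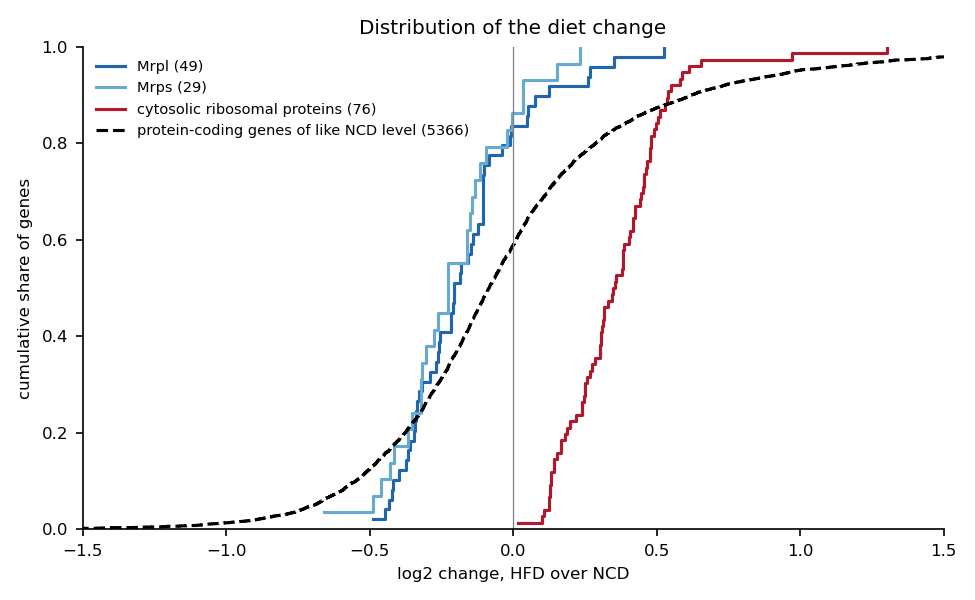
Cumulative share of genes (vertical axis) against log2 change, HFD over NCD (horizontal axis), for the large subunit, the small subunit, cytosolic ribosomal proteins and protein-coding genes of like NCD level. The curves of both subunits run close together, with medians of -0.21 and -0.23, while the genes of like level have a median of -0.08 and the cytosolic ribosomal proteins one of 0.35.

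The promoters of the genes at the ends of these distributions are shown first, since regulation of nuclear mitochondrial genes has been studied through promoter sites for NRF1, for GABP of the ETS family and for YY1. They are those of the gene that fell most in each subunit, Mrps26 and Mrpl17, and of both genes that rose, Mrpl18 and Mrpl33. Each runs 5′ to 3′ over the 250 bases before the RefSeq start on GRCm38.p6, at chr2:130563507-130563756 (plus strand) for Mrps26, chr7:105811088-105811337 (minus strand) for Mrpl17, chr17:12916092-12916341 (minus strand) for Mrpl18 and chr5:31613701-31613950 (plus strand) for Mrpl33. Capitals mark the letters CCGGAAG (ETS family), GCGCA with GCGC after 1 further base (NRF1) and AAGATGG (YY1) on either strand.
Mrps26: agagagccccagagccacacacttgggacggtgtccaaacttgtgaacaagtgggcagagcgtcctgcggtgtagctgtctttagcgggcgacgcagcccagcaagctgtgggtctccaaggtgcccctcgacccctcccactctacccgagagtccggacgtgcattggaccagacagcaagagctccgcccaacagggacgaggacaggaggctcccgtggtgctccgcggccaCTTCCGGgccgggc
Mrpl17: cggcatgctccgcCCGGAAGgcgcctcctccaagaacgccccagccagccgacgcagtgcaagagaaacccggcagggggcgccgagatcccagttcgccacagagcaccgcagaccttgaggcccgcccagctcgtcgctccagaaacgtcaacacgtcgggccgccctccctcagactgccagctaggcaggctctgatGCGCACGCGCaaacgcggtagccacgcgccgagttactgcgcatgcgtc
Mrpl18: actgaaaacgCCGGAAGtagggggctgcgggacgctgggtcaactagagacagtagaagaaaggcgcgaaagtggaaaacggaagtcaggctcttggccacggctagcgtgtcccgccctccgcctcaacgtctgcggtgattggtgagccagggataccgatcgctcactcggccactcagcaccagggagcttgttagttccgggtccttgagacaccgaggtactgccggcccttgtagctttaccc
Mrpl33: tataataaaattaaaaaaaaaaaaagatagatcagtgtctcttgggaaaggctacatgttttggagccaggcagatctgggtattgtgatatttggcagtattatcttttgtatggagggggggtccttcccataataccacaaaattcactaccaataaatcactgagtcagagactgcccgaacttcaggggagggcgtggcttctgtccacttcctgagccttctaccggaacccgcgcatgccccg

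Mrps26 had the ETS letters, read on the other strand, from 14 bases before the start. Mrpl17 had the ETS letters from 237 bases and the NRF1 letters from 49 bases before the start. Mrpl18 had the ETS letters from 240 bases before the start, and the stretch of Mrpl33 held none of the 3 motifs. A match describes the letters and shows neither a site nor a cause, and the absence of one says only that these letters are not in this window.

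A promoter of 300 bases, 250 before and 50 after the start, was found in the RefSeq table for 69 of the 78 genes. The NRF1 letters stood in 13 of these 69 (18.8%), against 9.86% of the 12204 promoters of tested protein-coding genes, on either strand. The ETS letters stood in 26 (37.7%, against 17.3%), the YY1 letters in 13 (18.8%, against 7.83%) and the letters TATAAA in 5 (7.25%, against 9.72%). Overlaps between motifs were not removed, and the promoters compared were not matched for base composition. Among the 13 genes with NRF1 letters, 6 were called lower and the median log2 change was -0.26, and among the 56 without them, 10 were called lower and the median was -0.17. For the ETS letters the order was the other way, with medians of -0.15 in the 26 genes with them and -0.21 in those without. Called lower were 5 of these 26 and 11 of the 43 without. For the YY1 letters the medians were close, -0.18 with and -0.19 without, with 3 of 13 and 13 of 56 called lower. For TATAAA they were -0.29 in the 5 genes with it and -0.17 in the 64 without, with 0 and 16 called lower. These differences were not tested.

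In the small subunit, 8 of 29 genes fell (27.6%) and 0 rose, and the median log2 change was -0.23. Over all genes tested, 14.5% were called lower and 17.9% higher, and among the genes of like level 22.2% and 17.9%. The count of 0 rises was also found by DESeq2's Wald test, and no small-subunit gene was higher at an unadjusted p under 0.05 in edgeR. Without NCD replicate 2, 1 gene was called higher. The falls numbered 5 without NCD replicate 1, 6 without NCD replicate 2, 3 without HFD replicate 1 and 4 without HFD replicate 2.

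Mrps26, a small-subunit protein with no bacterial counterpart, stood at 56.1 and 63.4 CPM in NCD and at 36.7 and 39.0 CPM in HFD. The diets were well apart, and it was the single called gene of the family that changed by 1.5-fold or more. Its log2 change was -0.66 ± 0.09 (SE; edgeR adjusted p = 0.00363). Leaving out a library gave edgeR adjusted p-values of 0.00609 to 0.0199.

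Mrps16, a counterpart of bacterial S16 in which human variants cause a mitochondrial disease, stood at 33.5 and 34.9 CPM in NCD and at 23.8 and 24.9 CPM in HFD. Mrps25, which is specific to mitochondria, stood at 56.6 and 57.5 CPM in NCD and at 40.2 and 42.8 CPM in HFD. In both genes the libraries of a diet lay close together and the diets did not overlap. The log2 change was -0.49 ± 0.08 for Mrps16 (edgeR adjusted p = 0.00760) and -0.46 ± 0.07 for Mrps25 (edgeR adjusted p = 0.00540). Of the exon bases of Mrps25, 69.8% lie opposite exons of Nr2c2, a nuclear receptor gene at 96.0 ± 5.79 CPM in NCD and 89.4 ± 3.51 CPM in HFD (SD, n = 2), which was not called (edgeR adjusted p = 0.317). The library kit keeps the strand, but the sources used here do not give the strand setting of the counting, so reads of the overlapping genes may have been mixed.

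Mrps28 was the most abundant small-subunit transcript per kilobase of exon, at 36.4 CPM per kilobase in NCD. It stood at 28.1 and 28.8 CPM in NCD and at 21.2 CPM in both HFD libraries. Its log2 change of -0.43 ± 0.08 was called with all libraries (edgeR adjusted p = 0.0128), but not without NCD replicate 2 (0.0580), HFD replicate 1 (0.0619) or HFD replicate 2 (0.0587). Mrps34, a mitochondria-specific protein whose human variants cause a mitochondrial disease, stood at 34.6 and 33.7 CPM in NCD and at 23.6 and 27.6 CPM in HFD. Its call (log2 change -0.42 ± 0.10, edgeR adjusted p = 0.0294) was lost without NCD replicate 1 (0.102), without NCD replicate 2 (0.0760) and without HFD replicate 1 (0.110). Mrps34 shares 63.4% of its exon bases with the opposite strand of Mapk8ip3, a kinesin adaptor gene, and 37.0% with Nme3 on its own strand, and neither of these was called. Mrps2, a counterpart of bacterial S2, stood at 49.4 and 44.2 CPM in NCD and at 35.6 and 37.0 CPM in HFD, and its call (log2 change -0.37 ± 0.08, edgeR adjusted p = 0.0236) held only without NCD replicate 2 among the 4 left-out libraries (0.0250, against 0.0688 to 0.105).

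Mrps12, whose bacterial counterpart lies at the decoding centre, and Mrps21, a counterpart of bacterial S21, stood next in abundance per kilobase of exon in the small subunit, and neither was called. Mrps12 stood at 42.6 and 28.98 CPM in NCD and at 33.5 and 30.5 CPM in HFD, and Mrps21 at 19.7 and 30.4 CPM in NCD and at 27.7 and 27.9 CPM in HFD. In both genes the NCD libraries lay farther apart than the diets, and in opposite directions. Without NCD replicate 2, Mrps12 was called lower and Mrps21 higher (edgeR adjusted p = 0.0464 and 0.0365), and without NCD replicate 1 both log2 changes had the other sign (0.14 and -0.13). Per kilobase of the principal transcript, which leaves out exons of other isoforms, the order in the small subunit became Mrps21, Mrps18a and Mrps18b, so that ranks depend on the length used. Mrps7 was the remaining gene of the small subunit that fell, with a log2 change of -0.23 that passed narrowly (edgeR adjusted p = 0.0491) and was named after its value was seen. It was not called under 5 of the 9 settings that kept all libraries (0.0505 to 0.0858), nor whichever library was left out (0.122 to 0.205).

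Symbol and place disagree for 3 genes of the small-subunit list. Mrps30 and Mrps18a encode proteins that structures of the mammalian mitoribosome place in the large subunit, and Mrps36 encodes a protein now assigned to the oxoglutarate dehydrogenase complex. Mrps30 stood at 47.7 and 43.9 CPM in NCD and at 37.5 and 36.8 CPM in HFD, a log2 change of -0.30 ± 0.07 that was called (edgeR adjusted p = 0.0301). The call was lost without NCD replicate 1 (0.126), HFD replicate 1 (0.102) or HFD replicate 2 (0.117). Mrps18a stood at 33.2 and 40.8 CPM in NCD and at 29.0 and 30.4 CPM in HFD and was not called (log2 change -0.32 ± 0.12, edgeR adjusted p = 0.0952), though it was without NCD replicate 1 (0.0303). Mrps36 was at 12.2 and 13.4 CPM in NCD and at 13.8 and 11.4 CPM in HFD, so that the diets overlapped (log2 change -0.02 ± 0.14). With subunits taken from structure, 13 of 51 large-subunit genes and 7 of 26 small-subunit genes fell.

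In the large subunit, 12 of 49 genes fell (24.5%) and 2 rose (4.08%), and the median log2 change was -0.21. The share called lower was near the 22.2% among the genes of like level, where 17.9% were called higher. Over all genes tested, these shares were 14.5% and 17.9%. The falls numbered 5 without NCD replicate 1, 7 without NCD replicate 2, 2 without HFD replicate 1 and 6 without HFD replicate 2. The rises numbered 1 without NCD replicate 1, 1 without HFD replicate 1 and 0 without HFD replicate 2.

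Mrpl17, a counterpart of bacterial L17, stood at 61.7 and 60.5 CPM in NCD and at 41.3 and 45.9 CPM in HFD. Its log2 change of -0.49 ± 0.08 (edgeR adjusted p = 0.00672) was the largest fall of the subunit, and it was called whichever library was left out (edgeR adjusted p = 0.0130 to 0.0328). Mrpl2 and Mrpl3, proteins of the conserved core of the large subunit, fell by 0.42 and 0.40 on the log2 scale. Mrpl2 stood at 35.7 and 37.4 CPM in NCD and at 26.7 and 27.9 CPM in HFD. Its call (edgeR adjusted p = 0.0114) was lost narrowly without NCD replicate 2 (0.0527) and without HFD replicate 1 (0.0590). Mrpl3 stood at 56.2 and 51.2 CPM in NCD and at 40.03 and 41.5 CPM in HFD, and its call (edgeR adjusted p = 0.0131) was lost without NCD replicate 1 (0.0603) and without HFD replicate 1 (0.0671).

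Mrpl9 and Mrpl28, counterparts of bacterial L9 and L28, and Mrpl44, a mitochondria-specific protein related to double-strand ribonucleases, completed the 6 largest falls of the subunit. Mrpl9 stood at 62.9 and 59.2 CPM in NCD and at 41.5 and 48.9 CPM in HFD (log2 change -0.43 ± 0.10, edgeR adjusted p = 0.0220). Mrpl28 stood at 29.7 and 28.0 CPM in NCD and at 21.3 and 21.8 CPM in HFD (log2 change -0.42 ± 0.08, edgeR adjusted p = 0.0154). Mrpl44 stood at 31.3 and 35.6 CPM in NCD and at 22.2 and 26.8 CPM in HFD (log2 change -0.45 ± 0.12, edgeR adjusted p = 0.0430). In all 3 genes the diets were apart. Mrpl9 lost its call without NCD replicate 1 (edgeR adjusted p = 0.0898) and without HFD replicate 1 (0.0726). Mrpl28 lost it without NCD replicate 1 (0.0722), HFD replicate 1 (0.0776) and HFD replicate 2 (0.0598). Mrpl44 lost it without NCD replicate 1 (0.0568), without NCD replicate 2 (0.152) and without HFD replicate 1 (0.154).

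Mrpl18, a counterpart of bacterial L18 at the central protuberance, moved against the family. It stood at 16.7 and 17.1 CPM in NCD and at 23.6 and 25.1 CPM in HFD, with both HFD libraries above both NCD libraries. The log2 change of 0.53 ± 0.09 (edgeR adjusted p = 0.0103) amounted to a rise of 44.0%, and its call was lost without HFD replicate 2 (0.0550). Mrpl18 shares 10.1% of its exon bases with the opposite strand of Tcp1, a chaperonin subunit gene at 189 ± 9.23 CPM in NCD and 199 ± 9.58 CPM in HFD (SD, n = 2), which was not called. Mrpl33, a counterpart of bacterial L33, stood at 20.9 and 23.7 CPM in NCD and at 28.3 and 28.5 CPM in HFD. Its rise (log2 change 0.35 ± 0.10, edgeR adjusted p = 0.0416) was lost without NCD replicate 1 (0.153), HFD replicate 1 (0.123) and HFD replicate 2 (0.146).

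**Figure D3:**
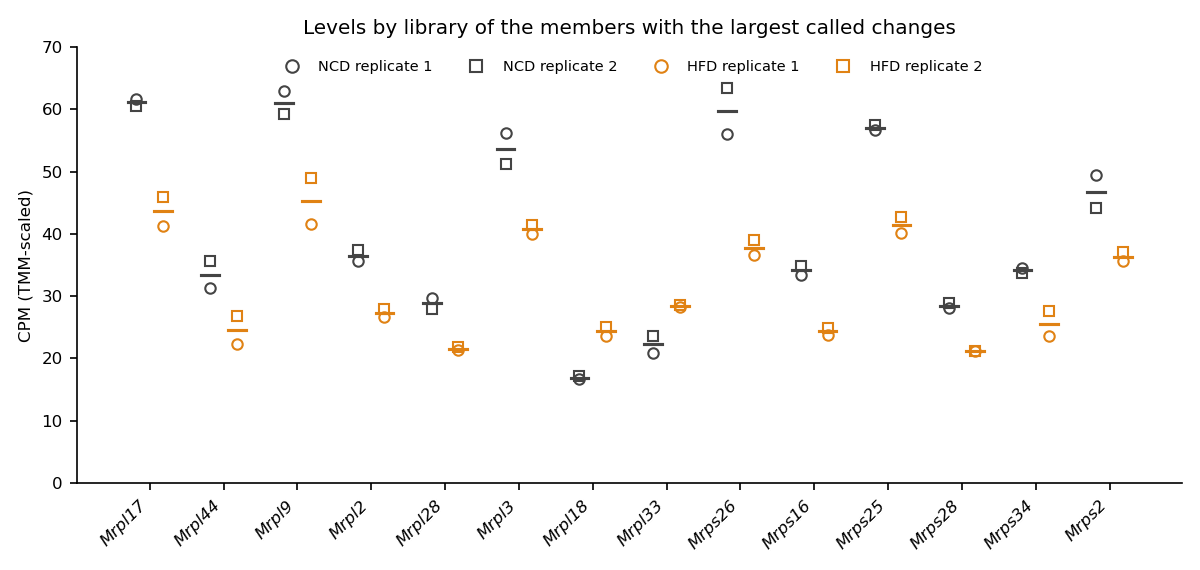
CPM (vertical axis, scaled between libraries) in each of the 4 libraries of the genes with the largest called changes in each subunit. Circles are replicate 1 and squares replicate 2, grey for NCD and orange for HFD, and short bars are means. Mrps26 lies at 56.1 and 63.4 CPM in NCD and at 36.7 and 39.0 CPM in HFD, and Mrpl18 and Mrpl33 are the genes in which the orange points lie above the grey ones.

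Proteins of the flexible stalk, where translation factors dock, include Mrpl10 and Mrpl12. Mrpl10, which anchors the stalk, stood at 62.4 and 63.7 CPM in NCD and at 49.1 and 50.4 CPM in HFD and was called (log2 change -0.34 ± 0.06, edgeR adjusted p = 0.0102), though not without HFD replicate 1 (0.0569). Mrpl12, the stalk protein that also binds the mitochondrial RNA polymerase, stood at 48.3 and 50.5 CPM in NCD and at 46.4 and 42.9 CPM in HFD (log2 change -0.15 ± 0.07, edgeR adjusted p = 0.198). A test of the difference between these genes was not made. Mrpl58, a release factor that became a ribosomal protein, stood at 21.5 and 25.7 CPM in NCD and at 16.9 and 19.6 CPM in HFD and did not pass (log2 change -0.37 ± 0.14, edgeR adjusted p = 0.0924).

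Levels between genes were compared per kilobase of exon. In NCD these ran from 2.53 to 51.6 CPM per kilobase over the 78 genes, with a median of 14.5 in the large and 10.1 in the small subunit. Per kilobase of the principal transcript these medians were 23.5 and 22.5, so that the gap between the subunits depended on the length used. Mrpl54, a mitochondria-specific protein, and Mrpl24, a counterpart of bacterial L24, led the large subunit at 51.6 and 48.5 CPM per kilobase, followed by Mrpl10 at 36.9. Mrpl54 stood at 41.6 and 43.4 CPM in NCD and at 35.2 and 35.4 CPM in HFD, a fall (log2 change -0.27 ± 0.07, edgeR adjusted p = 0.0335) that was not called whichever library was left out (0.0773 to 0.130). Mrpl24 stood at 104 and 114 CPM in NCD and at 96.2 and 93.3 CPM in HFD and was not called (log2 change -0.21 ± 0.06, edgeR adjusted p = 0.0614). Per kilobase of the principal transcript, Mrpl24 came before Mrpl54 and Mrpl42 came next.

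The other falls of the large subunit, named after their values were seen, were those of Mrpl32, Mrpl57, Mrpl42 and Mrpl38, with log2 changes of -0.37, -0.36, -0.35 and -0.34. Mrpl32, whose protein must be cut by the m-AAA protease before assembly, passed at the threshold (edgeR adjusted p = 0.049998) and was not called under 6 of the 9 settings that kept all libraries (0.0508 to 0.0776), nor whichever library was left out (0.0527 to 0.186). Among the left-out libraries, Mrpl57 was called only without NCD replicate 2 (edgeR adjusted p = 0.0390, otherwise 0.0709 to 0.0824) and Mrpl42 only without NCD replicate 1 (0.0261, otherwise 0.123 to 0.148), while Mrpl38 lost its call only without HFD replicate 2 (0.0542). Among the 35 large-subunit genes that were not called, log2 changes ran from -0.37 in Mrpl58 to 0.27 in Mrpl52, and among the 21 of the small subunit from -0.35 in Mrps35 to 0.23 in Mrps6.

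The large subunit summed to 1696 and 1761 CPM in NCD and to 1493 and 1524 CPM in HFD, and the small subunit to 937 and 973 CPM in NCD and to 805 and 808 CPM in HFD. The ratio of large to small was 1.81 in both NCD libraries and 1.86 and 1.89 in the HFD libraries, so that both HFD ratios lay above both NCD ratios by a small margin. An exact permutation test of 2 against 2 libraries, two-sided, cannot go below p = 0.333, and none was made. With subunits taken from structure the ratios were 2.11 in both NCD libraries and 2.15 and 2.18 in the HFD libraries.

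By evolutionary origin, the counts were close. Of 46 proteins with a bacterial counterpart, 11 fell (23.9%) and 2 rose, with a median log2 change of -0.21. Of 32 proteins classed as specific to mitochondria, 9 fell (28.1%) and 0 rose in edgeR, with a median of -0.22, and 1 was higher at an unadjusted p under 0.05 and by DESeq2. Called lower were 22.2% of the genes of like level and 14.5% of all genes tested. The 32 include Mrps36 as well as Mrps18a and Mrps18b, while Mrps18c was classed as having a bacterial counterpart. Leaving out NCD replicate 1, NCD replicate 2, HFD replicate 1 and HFD replicate 2 in turn gave 5, 8, 2 and 6 falls with a counterpart and 5, 5, 3 and 4 without. Exon overlap with other genes was also set against the calls. Among 45 genes whose exons overlap no other gene, 11 fell and 0 rose in edgeR, with a median of -0.18, against 2 rises by DESeq2 and 1 at an unadjusted p under 0.05. Their falls numbered 7, 7, 3 and 3 with the same libraries left out. Among 33 with an overlap, 9 fell and 2 rose, with a median of -0.22. Mrps18a, Mrps18b and Mrps18c are paralogs, and pseudogenes of Mrps36, Mrpl23 and Mrpl48 had at most 88 counts in a library, so that some reads of these genes may be shared.

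Many mitoribosomal genes stand head to head with another protein-coding gene. This held for 23 of the 78 genes (29.5%), against 11.3% of 15818 tested protein-coding genes, counting starts on opposite strands up to 1000 bases apart or overlapping by up to 300. Starts here were the outermost ends of the annotated genes, not the RefSeq starts used for the promoters. Mrpl46 and Mrps11 were therefore not counted, though their RefSeq starts meet these limits. Neither was called (log2 change -0.32 and -0.28). Of the 23 neighbours, 4 fell (17.4%) and 3 rose (13.0%). Over the protein-coding genes tested these shares were 18.6% and 21.1%, and over all genes tested 14.5% and 17.9%. In 8 pairs the mitoribosomal gene fell, and its neighbour fell as well in 1 of these and rose in 0. The pair that fell together was Mrpl44 and Wdfy1, an endosomal adaptor gene, which went from 59.0 ± 0.32 to 50.7 ± 0.14 CPM (SD, n = 2; log2 change -0.22, edgeR adjusted p = 0.0403) and whose exons overlap 7.66% of those of Mrpl44.

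Of the 7 pairs whose neighbour was called, the mitoribosomal gene was called in 1. Ppp1r10, a phosphatase regulator head to head with Mrps18b, rose from 65.4 ± 3.42 to 113 ± 6.33 CPM (SD, n = 2; log2 change 0.78, edgeR adjusted p = 0.00106), beside -0.13 for Mrps18b (edgeR adjusted p = 0.297). Fau, which encodes a cytosolic ribosomal protein, rose beside Mrpl49 (log2 change 0.37 against -0.10), and Ncapd2, a condensin subunit, beside Mrpl51 (0.45 against -0.10). Cyb5rl fell beside Mrpl37 (-0.74 against -0.01), Ndufs6, a complex I subunit, beside Mrpl36 (-0.41 against -0.18) and Ptcd2, a mitochondrial RNA-binding protein, beside Mrps27 (-0.27 against 0.03). The difference within a pair was not tested, and pairs were named after their values were seen.

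The other genes of mitochondrial translation were taken by function. Called lower were 60% of mitoribosomal proteins under other symbols, 29.2% of assembly factors, 14.3% of translation factors and 29.4% of tRNA synthetases. Called higher were 0%, 4.17%, 7.14% and 0% in the same order. Over all genes tested, 14.5% were called lower and 17.9% higher. Of 5 mitoribosomal proteins under other symbols, 3 fell and 0 rose in edgeR, with a median log2 change of -0.29, and 0 were higher by DESeq2 or at an unadjusted p under 0.05. Leaving out NCD replicate 1, NCD replicate 2, HFD replicate 1 and HFD replicate 2 in turn gave 2, 2, 1 and 1 falls. Chchd1, a small-subunit protein, stood at 34.5 and 34.1 CPM in NCD and at 24.4 and 23.3 CPM in HFD (log2 change -0.52 ± 0.08, edgeR adjusted p = 0.00565) and was called whichever library was left out. Gadd45gip1 of the large subunit fell by 0.32 and Dap3, the GTP-binding protein of the small subunit, by 0.28 on the log2 scale. Gadd45gip1 was not called whichever library was left out (edgeR adjusted p = 0.0524 to 0.0687), and Dap3 only without NCD replicate 2 (0.0495).

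Of 24 assembly factors, 7 fell and 1 rose, with a median log2 change of -0.22. With the same libraries left out in turn, the falls numbered 3, 2, 4 and 2. Ngrn, which is needed for the large ribosomal RNA, stood at 63.7 and 64.6 CPM in NCD and at 41.4 and 43.0 CPM in HFD (log2 change -0.60 ± 0.06, edgeR adjusted p = 0.00160). Noa1, a GTPase of small-subunit assembly, stood at 44.5 and 42.9 CPM in NCD and at 31.1 and 29.7 CPM in HFD (log2 change -0.52 ± 0.07, edgeR adjusted p = 0.00438). Both were called whichever library was left out. The rise, singled out after it was seen, was in Nsun4, a methyltransferase of the small ribosomal RNA (log2 change 0.43, edgeR adjusted p = 0.0461), which was called only without NCD replicate 1 (0.0461) when a library was left out.

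Of 14 translation factors tested out of 15, 2 fell and 1 rose, with a median of -0.15, and 1 fell without NCD replicate 1, without NCD replicate 2 or without HFD replicate 2. Pdf, which removes the formyl group from new mitochondrial proteins, fell from 34.7 ± 1.26 to 19.3 ± 2.29 CPM (SD, n = 2; log2 change -0.84, edgeR adjusted p = 0.00355). Tufm, the elongation factor, stood higher, at 28.3 and 30.7 CPM in NCD and at 36.6 and 39.6 CPM in HFD (log2 change 0.37, edgeR adjusted p = 0.0246). Without NCD replicate 1 (0.104) or HFD replicate 2 (0.119) it was not called. Of 17 mitochondrial tRNA synthetases, 5 fell and 0 rose in edgeR, DESeq2 or at an unadjusted p under 0.05, with a median of -0.18, and the falls numbered 2, 2, 2 and 1 with NCD replicate 1, NCD replicate 2, HFD replicate 1 and HFD replicate 2 left out. Nars2, which charges the asparagine tRNA, fell from 28.0 ± 0.84 to 17.0 ± 1.36 CPM (SD, n = 2; log2 change -0.72, edgeR adjusted p = 0.00448).

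The mRNAs that this ribosome translates were also counted. Of the 13 mitochondrially encoded mRNAs, 6 fell (46.2%) and 1 rose (7.69%) in edgeR, with a median log2 change of -0.13. The rises numbered 4 by DESeq2 and 3 at an unadjusted p under 0.05, and 2 in edgeR without NCD replicate 2. The 13 mRNAs summed to 21983 and 23343 CPM in NCD and to 20593 and 20258 CPM in HFD. mt-Co3 of cytochrome oxidase fell from 1641 ± 27.5 to 1251 ± 17.4 CPM and mt-Nd1 of complex I rose from 1059 ± 56.9 to 1344 ± 11.4 CPM (SD, n = 2; edgeR adjusted p = 0.000660 and 0.00342). Of 18 genes tested for mitochondrial DNA transcription and RNA handling, 2 fell (11.1%) and 1 rose (5.56%), with a median of -0.07. Over all genes tested, the shares were 14.5% and 17.9%. Lrpprc, which stabilises mitochondrial mRNAs, fell from 140 ± 5.86 to 103 ± 2.20 CPM (SD, n = 2; log2 change -0.45, edgeR adjusted p = 0.00297). Its partner Slirp rose (log2 change 0.51, edgeR adjusted p = 0.0342), a call lost whichever library was left out (0.0507 to 0.139).

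Of 10 regulators of mitochondrial biogenesis, 1 fell (10%) and 2 rose (20%), with a median log2 change of 0.06. These shares were near those over all genes tested, 14.5% lower and 17.9% higher. Without HFD replicate 2, 2 fell and 0 rose, and without each other library in turn 1 fell and 1 rose. Nrf1, whose protein binds the NRF1 letters above, stood at 49.7 and 51.2 CPM in NCD and at 34.3 and 36.2 CPM in HFD (log2 change -0.52 ± 0.07, edgeR adjusted p = 0.00401) and was called whichever library was left out. Gabpa, which encodes an ETS-family subunit of GABP, stood at 76.3 and 77.4 CPM in NCD and at 93.8 and 94.7 CPM in HFD (log2 change 0.29 ± 0.05, edgeR adjusted p = 0.0109). Its call was lost without NCD replicate 1 (0.0540) and HFD replicate 2 (0.0530). Myc rose by 0.48 on the log2 scale (edgeR adjusted p = 0.0169), which was called only without NCD replicate 1 (0.0205) among the left-out libraries, and the coactivator gene Ppargc1a, at 7.13 ± 0.35 CPM in NCD and 6.95 ± 1.01 CPM in HFD (SD, n = 2), was not called and was chosen after its values were seen.

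Citrate cycle and import genes were counted as well. Of 15 citrate cycle enzymes, 9 fell (60%) and 2 rose (13.3%), with a median log2 change of -0.22. Of 22 import genes, 9 fell (40.9%) and 0 rose in edgeR, with a median of -0.19, and 1 was higher by DESeq2 and at an unadjusted p under 0.05. Both shares called lower were above the 25.6% of the mitoribosomal genes and the 14.5% of all genes tested. The medians were close to the -0.21 of the mitoribosomal genes, so a fall of this size was not particular to them. Leaving out NCD replicate 1, NCD replicate 2, HFD replicate 1 and HFD replicate 2 in turn gave 4, 3, 3 and 3 falls of citrate cycle enzymes and 4, 4, 3 and 5 of import genes, and 0, 0, 1 and 1 rises of citrate cycle enzymes. Suclg2, a succinyl-CoA ligase subunit, fell by 0.39 and Timm13, an import chaperone, by 0.51 on the log2 scale (edgeR adjusted p = 0.00916 and 0.00370). Cs, citrate synthase, a gene chosen after its value was seen, rose by 0.21 (edgeR adjusted p = 0.0289), and that call held only without HFD replicate 1 (0.0418) among the left-out libraries.

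Proteins of the cytosolic ribosome, a list added after its values were seen, moved the other way. Of 76 genes, 58 rose (76.3%) and 0 fell, with a median log2 change of 0.35. The 0 falls were 0 as well by DESeq2 and at an unadjusted p under 0.05, and the number of rises ran from 49 to 67 over the settings tried. They summed to 17621 and 18046 CPM in NCD and to 22842 and 23041 CPM in HFD. The mitoribosomal sum was 14.9% and 15.1% of the cytosolic sum in NCD and 10.1% in both HFD libraries. Cytosolic ribosomal proteins have many near-identical copies in the genome, which makes their counts uncertain.

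**Figure D4:**
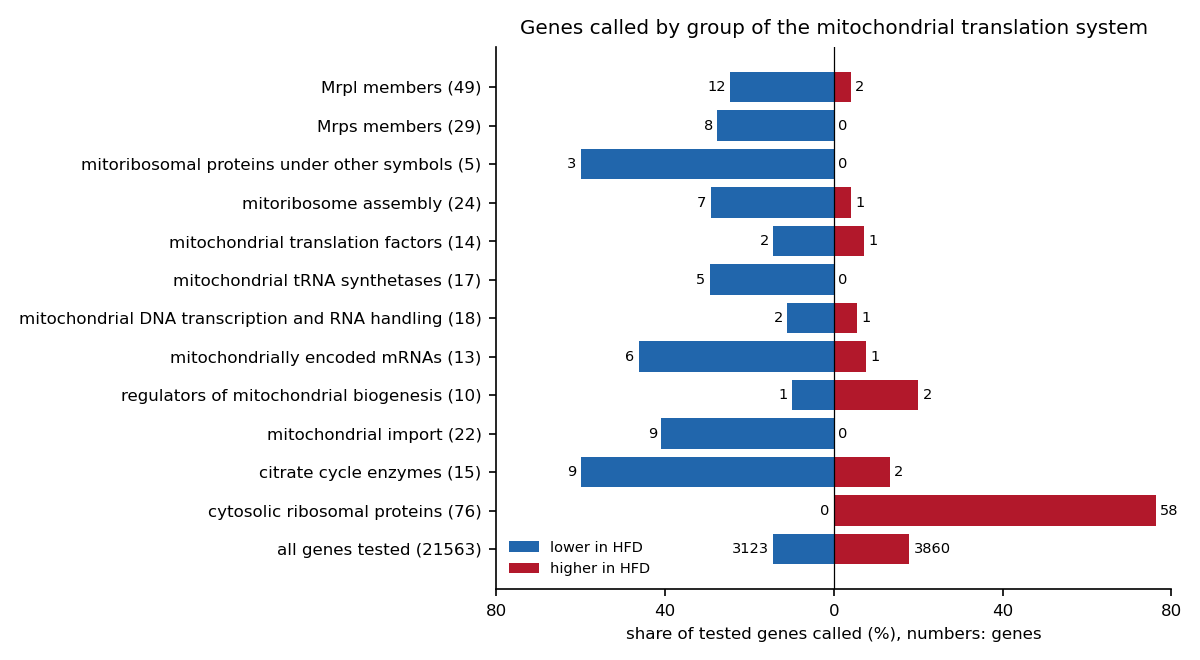
Share of tested genes called lower (blue, to the left) and higher (red, to the right) in HFD by edgeR, by group, with the number of genes beside each bar and the number tested in brackets. The mitoribosomal bars lie to the left with 12 and 8 genes, that of the cytosolic ribosomal proteins to the right with 58, and all genes tested have 3123 lower and 3860 higher.

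Markers of several other cell types differed between the diets by more than the mitoribosomal genes. All 6 acinar, 6 B cell, 4 T cell and 5 fibroblast markers rose. Their sums went from 261 and 263 to 1725 and 2100 CPM for acinar cells, from 552 and 549 to 3674 and 3716 CPM for B cells, from 1.69 and 2.16 to 28.1 and 23.7 CPM for T cells and from 63.9 and 66.3 to 993 and 1023 CPM for fibroblasts. Of 6 beta cell markers, 4 fell, and their sum went from 17232 and 17713 to 13473 and 14073 CPM. Of 5 alpha cell markers, 3 rose, with sums of 9329 and 9781 CPM in NCD, against 13266 and 13903 CPM in HFD. Of 8 macrophage markers, 4 fell and 2 rose, with sums of 858 and 827 CPM in NCD, against 702 and 699 CPM in HFD. The macrophage rises were those of Csf1r and Mertk, receptors of macrophages, and neither was called when any library was left out, while the falls numbered 1, 4, 1 and 3 without NCD replicate 1, without NCD replicate 2, without HFD replicate 1 and without HFD replicate 2. Of 4 endothelial markers, 2 rose and 2 fell, and the falls numbered 1, 2, 0 and 1 with the same libraries left out. The alpha cell rises numbered 3, 2, 2 and 2 in the same order. No marker was at 0 in all libraries. These shifts moved with the mitoribosomal result, and their part in it was not tested.

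**Figure D5:**
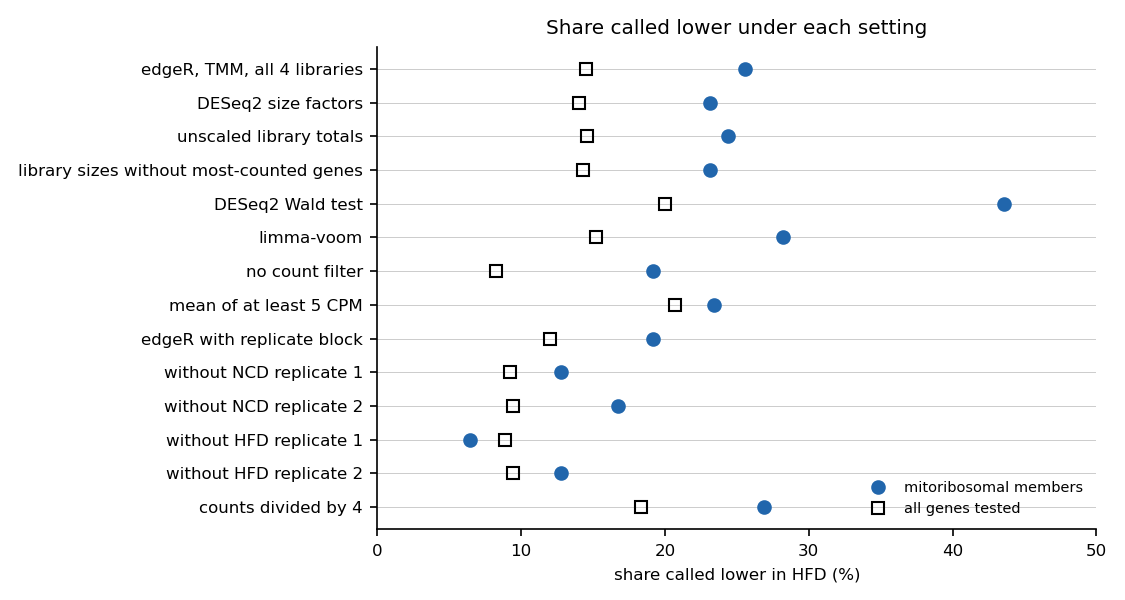
Share of genes called lower in HFD (horizontal axis, percent) under each setting (vertical axis), for the mitoribosomal genes (filled circles) and all genes tested (open squares). The circle lies to the right of the square at 25.6% against 14.5% with all libraries and edgeR, and to its left without HFD replicate 1, at 6.41% against 8.88%.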

How the data were processed

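Total RNA of 4 libraries, 2 from mice on normal chow (NCD) and 2 on a high-fat diet (HFD), was made into libraries with a stranded kit, per the labels' protocols. The authors deposited whole-number counts per gene and library for 55421 Ensembl identifiers. GRCm38, HISAT, featureCounts 1.5.0 and DESeq 1.8.3 stand in the submitters' processing notes, and the sources used here do not give their role, the strand setting or the handling of multi-mapping reads. Multiples of 4 were in excess among low counts, by a factor of 1.54 to 1.66 over neighbouring values, so the number of fragments behind a count is unsure.

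Symbols and coordinates came from GENCODE M21. Counts were tested with edgeR 4.0.16 in R 4.3.3: TMM scaling, filterByExpr with a minimum count of 10, its quasi-likelihood F test with diet as the only term, and Benjamini-Hochberg adjustment over all genes, with calls at an adjusted p under 0.05. All 78 mitoribosomal genes passed the filter. The common biological coefficient of variation was 19.1%. Standard errors were derived from the same fit. The test was also run on simulated data with known changes, in 50 genes at each size of change. It recovered 0% of changes of 1.25-fold, 28% of 1.5-fold, 40% of 2-fold and 78% of 4-fold, with 21 calls among unchanged genes. In that run 50 genes per size were changed among 20883, whereas 32.4% of all genes tested were called between the diets. Of the 20 mitoribosomal genes called lower, 3 fell by at most 1.25-fold. Whether the recovery rates hold for the comparison of diets was not tested. A gene that was not called may still have changed by a small amount. Promoters came from RefSeq (GRCm38.p6).

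Alternatives were DESeq2's size factors, unscaled totals, library sizes without endocrine hormone, acinar and antigen receptor genes and genes over 1% of a library, limma-voom (limma 3.58.1), DESeq2 1.42.0 with its Wald test, testing without a count filter or with genes of at least 5 CPM on average, the replicate number as a block, each library left out, counts divided by 4 and subunits by structure. Where 1 library of a diet remained, its spread was taken from the other diet. Replicate numbers are taken from the titles and nothing in the labels pairs them.

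The genes, lists and tests were chosen with earlier results of these data known. Named mitoribosomal genes were up to 6 of the largest called falls and rises in each subunit, the 3 highest per kilobase of exon in each, and Mrpl12, Mrpl10, Mrpl58, Mrps12, Mrps30, Mrps18a and Mrps36, and from each other list up to 4 with the smallest p. Outside that rule, genes sharing exons with a named gene, the ends of a range (Mrpl52, Mrps35 and Mrps6), Mrps18b and the macrophage markers Adgre1, Fcgr1, Csf1r and Mertk were named with their values known, as were those marked so in the text.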

Additional observations from a re-analysis of the deposited data

How the results depend on the processing

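The median log2 change of both subunits was below 0 under every setting tried. It moved to -0.14 (large) and -0.18 (small) when genes with a mean under 5 CPM were left out, and ran from -0.23 to -0.15 (large) and from -0.23 to -0.16 (small) over the fits that left out a library. The number of falls was 34 by DESeq2's Wald test, 23 of them in the large subunit, and ran from 5 to 13 with a library left out (2 to 7 in the large and 3 to 6 in the small subunit). DESeq2's Wald test also called more genes among all 21563 tested. It called 4302 lower and 4959 higher, against 3123 lower and 3860 higher in edgeR. Rises numbered 4 by DESeq2's Wald test and 1 without the count filter, all of them in the large subunit, and ran from 0 to 3 with a library left out (0 to 2 in the large and 0 to 1 in the small subunit). Under the other settings the counts of falls stayed within 1.5 times the reported ones, except as given next for the block.

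Same-numbered replicates of the diets did not deviate together (correlation of the difference between replicates 1 and 2 over genes, 0.0021, from 2 pairs), so the numbers were not taken as pairing. With the replicate number as a block, 15 genes fell and 1 rose, 5 of the falls in the small subunit and the rise in the large subunit.

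Among the 24 mitoribosomal genes named by the rule, 261 of the alternative values kept their direction and call, 40 lost the call, 6 gained it and 5 changed sign, all in genes that were not called. Over the fits that left out a library, the log2 change of Mrps12 ran from -0.42 to 0.14 and that of Mrps21 from -0.13 to 0.49, with the changed sign in both without NCD replicate 1. The sign also changed for Mrps36 with a mean of at least 5 CPM (0.029), without NCD replicate 2 (0.04) and without HFD replicate 2 (0.10). The cause of these dependences was not tested.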
